A study of Homo sapiens with 4 samples.

Results

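Among U-2 OS cells analysed after ionizing radiation (IR), a minority carried high levels of interferon-stimulated transcripts. These interferon-high cells were the top 15% of cells of each irradiated library by a score, the summed counts of IFIT1, IFIT2, IFIT3, OASL, OAS1, ISG15, MX1, IFI6 and RSAD2 per 10000 gene counts of the cell. They numbered 74 of 495 irradiated cells, 37 of 247 in experiment 1 and 37 of 248 in experiment 2, out of 1220 cells in the whole series. The 210 and 211 irradiated cells below the top 15%, called other cells here, are what they were compared with, always within the same library. Because the score chose the cells, its 9 genes are described without a test in these groups, and comparisons were made over the remaining genes.

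U-2 OS is an established osteosarcoma line of human origin with wild-type p53. Cells either received 4 Gy (the IR group, 247 and 248 cells) or no irradiation (the untreated group, UT, 358 and 367 cells), with 1 single-cell library per group in each of 2 experiments. The series design and the study's methods place collection at 48 h after IR, whereas the treatment protocol in the labels says 24 h, and this was not resolved. Both groups stem from 1 line with no genetic change between them, and nothing in the labels sorts cells by an interferon readout, so the high and other cells are a division made on the transcriptomes themselves.

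In the interferon response, cytosolic sensors of RNA or DNA signal through adaptors to interferon regulatory factors, which can switch on interferon genes and part of the antiviral programme directly. Secreted interferon binds its receptors on the same or other cells, Janus kinases phosphorylate STAT factors, and these join IRF9 to bind interferon-stimulated response elements in the promoters of their target genes. DNA damage is one of the stimuli known to raise such genes in cell lines, and the response is known to differ strongly from cell to cell.

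The score genes are well-known antiviral effectors. IFIT1, IFIT2 and IFIT3 are tetratricopeptide proteins that bind viral RNA, OAS1 makes the oligoadenylates that activate RNase L and OASL is its relative without that activity. ISG15 is a ubiquitin-like modifier, RSAD2 (viperin) makes a chain-terminating nucleotide, IFI6 protects the endoplasmic reticulum from viral remodelling and MX1 is an antiviral GTPase. To show the interferon-stimulated response element, stretches of RefSeq promoters (GRCh38.p14) are given for 3 score genes and 5 genes outside the score that rose in interferon-high cells. They were picked because they hold a match, and are printed 5′ to 3′ on the gene's strand. Capitals mark the core of the interferon-stimulated response element (GAAA, then 2 bases of any kind, then GAAA again) or its reverse complement, and neighbouring matches may overlap.
IFIT1, chr10:89392482-89392554, plus strand: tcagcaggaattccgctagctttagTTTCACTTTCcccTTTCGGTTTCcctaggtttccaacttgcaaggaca
IFIT3, chr10:89332410-89332512, plus strand: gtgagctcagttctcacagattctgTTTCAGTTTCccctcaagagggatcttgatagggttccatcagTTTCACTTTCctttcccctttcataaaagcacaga
ISG15, chr1:1013359-1013424, plus strand: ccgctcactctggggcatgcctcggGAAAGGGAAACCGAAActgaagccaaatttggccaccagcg
DDX60, chr4:168318771-168318865, minus strand: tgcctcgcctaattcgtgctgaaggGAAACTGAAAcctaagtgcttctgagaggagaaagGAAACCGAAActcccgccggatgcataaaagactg
IFI44, chr1:78649746-78649805, plus strand: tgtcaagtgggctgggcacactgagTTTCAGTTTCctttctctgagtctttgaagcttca
IFIH1, chr2:162318803-162318868, minus strand: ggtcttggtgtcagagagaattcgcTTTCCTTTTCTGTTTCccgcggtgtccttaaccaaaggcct
PARP14, chr3:122680785-122680844, plus strand: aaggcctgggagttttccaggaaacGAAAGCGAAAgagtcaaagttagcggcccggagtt
B2M, chr15:44711348-44711413, plus strand: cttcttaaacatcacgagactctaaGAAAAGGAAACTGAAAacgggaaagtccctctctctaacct

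Counted over RefSeq promoters of 300 bases, from 250 before the start to 50 after it and on both strands, this core occurred in 6 of the 7 score genes that the table holds (85.7%). OAS1 was the score gene with a promoter entry but no match. Outside the score, HERC6, DDX58, FGF2 and ZC3HAV1, all higher in interferon-high cells, had no match either. The motif was present in 32 of 291 genes that were higher in interferon-high cells (11%), in 8 of 332 that were lower (2.41%) and in 392 of 10288 genes tested (3.81%). Over all 35116 promoters of the table the share was 3.57%. TTCNNNGAA, the gamma-activated element, occurred in 6.87% of the genes that were higher, 8.13% of those that were lower and 8.54% of the genes tested. A match of these letters is a description and says nothing of binding.

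Scores spread widely within the selected cells. Interferon-high cells had a median of 7.39 score counts per 10000 (range 2.39 to 151.9) in experiment 1 and of 17.8 (5.15 to 138.1) in experiment 2, against 0.572 and 0.85 in other cells. The boundary fell on a slope rather than in a gap: the 3 lowest cells inside had 2.39, 2.43 and 2.61 and the 3 highest outside 2.36, 2.23 and 2.22 in experiment 1, and 5.15, 5.27 and 5.38 against 5.15, 4.56 and 4.09 in experiment 2. A score of at least 10 was reached by 16 and 23 irradiated cells and by 4 and 3 untreated cells, and at least 50 by 5 and 8 irradiated cells and 1 untreated cell in each experiment. At the other end, 69 and 50 irradiated cells had no score count at all. The selected cells held 85.2% and 83.5% of all score counts of their libraries, and the 4 highest cells alone held 43.3% and 26.5%.

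**Figure D1:**
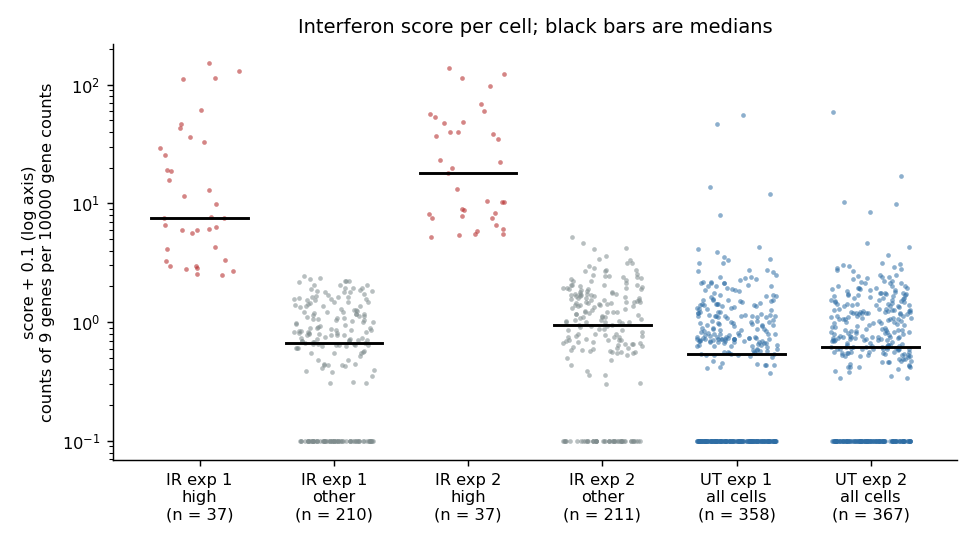
Score of every cell (counts of the 9 score genes per 10000 gene counts, plus 0.1, log axis), with interferon-high and other cells of the IR libraries and all cells of the UT libraries; black bars are medians and cells without a score count lie at 0.1. The high cells reach from 2.39 to 151.9 in experiment 1 and from 5.15 to 138.1 in experiment 2, with no gap at the boundary to the other cells.

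The selected cells were of ordinary depth. Their median total was 20181 and 22037 gene counts, against 20337 and 22034 in other cells, and after thinning to 8000 UMIs (unique molecular identifiers, which count molecules) they had a median of 3790 and 3765 detected genes, against 3744 and 3740. A median of 5 and 6 of the 9 score genes was detected per selected cell (range 1 to 8 in each library), from 12 and 36 score UMIs, but cells at the boundary had as few as 2 and 3. When the score was taken after thinning, 25 of 35 and 29 of 35 cells were chosen again, so membership near the boundary is uncertain. Cell barcodes recurred between libraries, 173 in both IR libraries and 161 in all 4, and 3 barcodes were interferon-high in both IR libraries.

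Levels are given below as CPM, the usual scaling of counts to a common total, over the summed cells of 1 state in 1 library, which allow a gene to be compared between states. IFIT3 had 760 and 954 CPM in interferon-high cells of experiments 1 and 2, against 9.21 and 17.3 CPM in other cells. OASL had 566 and 512 CPM in interferon-high cells, against 9.62 and 19. IFIT1 had 440 and 504 CPM, against 7.81 and 12.8. These 3 and IFIT2 (425 and 393 CPM, against 3.41 and 4.19) and ISG15 (304 and 389 CPM, against 12.0 and 16.2) made up most of the score in both libraries.

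RSAD2 was carried by fewer cells. It had 108 and 97.7 CPM in interferon-high cells, against 0.401 and 1.71 CPM in other cells, but was detected in 18.9% and 29.7% of the interferon-high cells, and 1 cell held 50% of its counts among them in experiment 1. IFI6 (64.5 and 65.5 CPM, against 19.8 and 23.0) and OAS1 (26.9 and 50.5 CPM, against 6.61 and 7.04) differed less between the states. MX1 took hardly any part, with 2 and 1 counts in interferon-high cells and 5 and 15 in other cells. The largest count of a score gene in 1 cell was 111, for IFIT3 in experiment 2, below the highest value of any gene there, 130.

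Each score gene was then measured in cells chosen on the other 8 genes, a measurement its own counts did not enter. Since the 9 genes were chosen together for the score, the values are a description without a test. IFIT2 was 80.1-fold higher in such cells (log2 fold change 6.32 ± 0.17 SE), IFIT3 52.1-fold (5.70 ± 0.14) and IFIT1 35.0-fold (5.13 ± 0.15). OASL was 28.2-fold (4.82 ± 0.14) and ISG15 19.7-fold higher (4.3 ± 0.15), OAS1 3.08-fold (1.62 ± 0.34) and IFI6 2.42-fold (1.27 ± 0.22). RSAD2 had 80 and 91 counts in such cells, against 2 and 9 in the far larger sums of other cells, too few there for a firm fold. MX1 had 2 and 1 counts, against 5 and 15.

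Beyond the score, 13180 genes were compared between interferon-high and other cells on 4 sums (2 states in 2 libraries), with edgeR's quasi-likelihood test and the library as a term, at an adjusted p under 0.05. Of these, 409 genes were higher (3.10%) and 395 lower (3.00%) in interferon-high cells. The low-count filter kept a gene with enough counts in 2 of the 4 sums, whichever these were. Among others, OAS2, MX2, MAL2, ADAP1, CCL4L2 and CCL5 were too low in both sums of other cells. They were tested through the interferon-high sums alone, so their calls are no support, yet counts of called genes include them. CCL3L1, P2RX7 and IL6, among others, were high enough in only 1 sum of other cells and also needed an interferon-high sum. Their calls are no support either. With 1 residual degree of freedom the test borrows its spread from all genes, so p-values of genes whose counts come in bursts from few cells may be too small, and the 2 values per state are given for each gene so that they can be read directly. A second tool, DESeq2, called 48 genes higher (0.364%) and 18 lower (0.137%). Without the library as a term edgeR called 8 higher, namely IFI44, IFIH1, HERC6, FGF2, DDX60, MAL2, DDX58 and UCA1, and 0 lower, with 550 and 489 genes at an unadjusted p under 0.05.

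Of 50 tested antiviral effectors outside the score, 22 rose (44%, against 3.10% of all genes tested) and 0 fell (31 and 1 at an unadjusted p under 0.05 by edgeR, 9 and 0 called by DESeq2), with a median log2 fold change of 0.54 against 0.01 over all genes tested. DDX60, a helicase that promotes RNA sensing, had 182 and 156 CPM in interferon-high cells, against 8.21 and 17.9 CPM in other cells (log2 fold change 3.69 ± 0.19). IFI44, an antiviral protein that binds guanine nucleotides, had 137 and 106 CPM, against 7.21 and 11.6 (3.68 ± 0.22). Its states lay far apart in both libraries, as did those of DDX60.

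OAS2, another oligoadenylate synthetase, had 13.4 and 32.2 CPM in interferon-high cells, against 0.20 and 2.85 in other cells, and OAS3 had 59.2 and 81.6 CPM, against 49.1 and 35.8. ISG20, an exonuclease that degrades RNA, had 28.2 and 110 CPM, against 7.21 and 15.4. MX2, the relative of MX1 known for restricting HIV, was low but uneven, with 6 and 16 counts in interferon-high cells, against 3 and 14 in the far larger sums of other cells. A single cell held 50% of the MX2 counts in each library. ISG20 and OAS3 passed the test (log2 fold changes 2.56 ± 0.24 and 0.77 ± 0.19). OAS2 and MX2 were called too, on few counts (OAS2 10 and 30, against 1 and 15, and MX2 6 and 16, against 3 and 14), and MX2 could not be tested within low-cycle cells or without the 4 highest-scoring cells of each library. Both entered the test through the interferon-high sums alone, so their calls are no support, though the count of effectors that rose includes them.

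Other effectors moved less. SAMD9, which restricts poxviruses, had 110 and 189 CPM, against 49.3 and 57.3 (2.80-fold), and its neighbour SAMD9L 51.1 and 56.9, against 19.6 and 17.7. The ADP-ribosyltransferase PARP14 had 163 and 239 CPM, against 81.7 and 98.2, and PARP9 114 and 122 CPM, against 51.1 and 52.1. The membrane protein IFITM3, which blocks viral entry, stood at 711 and 704 CPM, against 448 and 361. All 5 were higher in interferon-high cells of each library, yet clearly present in the other cells too. The apolipoproteins APOL1, APOL2 and APOL6, whose sequences resemble each other, rose by 1.71, 1.27 and 1.81 on the log2 scale.

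Several well-known interferon-stimulated genes did not pass the test or were hardly detected. IFIT5, the remaining tested IFIT, had 20.2 and 19.3 CPM in interferon-high cells, against 18.6 and 20.2 in other cells. PML, TRIM25 and SP100 had log2 fold changes of 0.08, -0.08 and 0.19 and were not called. IFI35 and EPSTI1 were at 0 counts in all 74 interferon-high cells, which allows up to 4.03 and 3.22 CPM in the 2 sums (3 counts, counting error only), and BST2 had 0 and 11 counts.

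**Figure D2:**
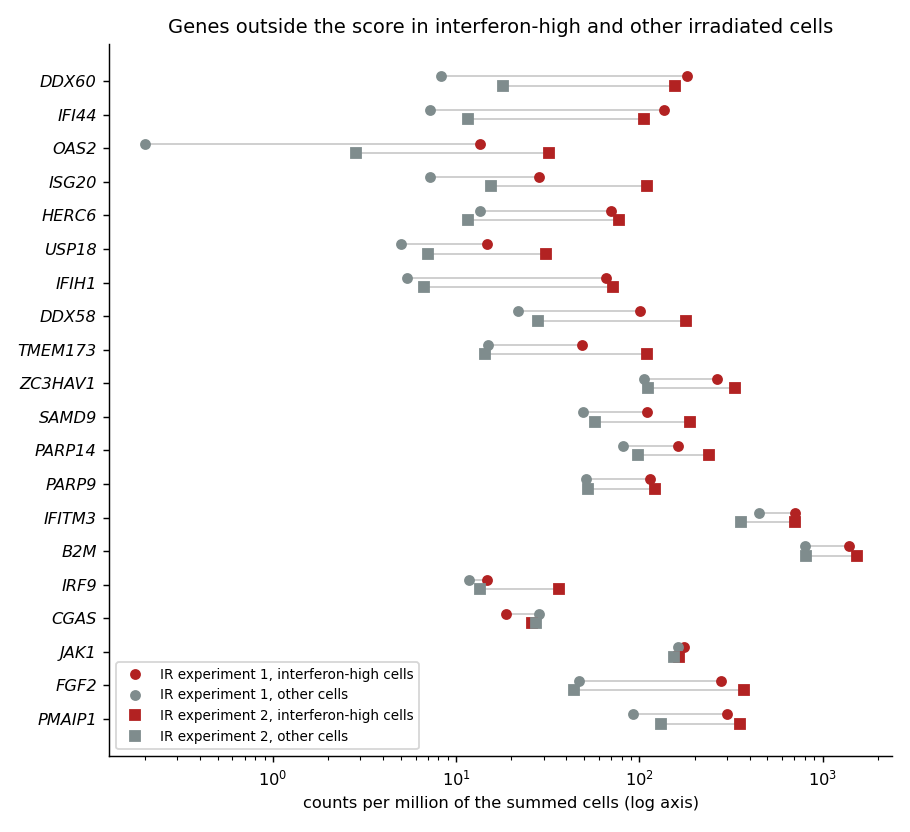
CPM of the summed cells (log axis) for 20 genes outside the score, in interferon-high cells (red) and other cells (grey) of IR experiment 1 (circles) and experiment 2 (squares). Red lies right of grey in both experiments for DDX60 (182 and 156, against 8.21 and 17.9 CPM) and FGF2 (280 and 373, against 46.7 and 44 CPM), whereas CGAS lies close together or the other way.

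Of 13 tested nucleic acid sensors and adaptors, 7 were higher (53.8%, against 3.10% of all genes tested) and 0 lower (9 and 0 at an unadjusted p under 0.05 by edgeR, 4 and 0 by DESeq2) and a median of 0.43. IFIH1 encodes MDA5, the sensor of long double-stranded RNA, and had 65.9 and 71.9 CPM in interferon-high cells, against 5.41 and 6.66 CPM in other cells (11.4-fold). DDX58 encodes RIG-I, the sensor of RNA with a 5′ triphosphate, and had 101 and 179 CPM, against 21.8 and 28.0 (5.59-fold). TMEM173 encodes STING, the adaptor below the DNA sensor cGAS, and had 48.4 and 110 CPM, against 15 and 14.3 (5.34-fold).

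ZC3HAV1, the zinc-finger antiviral protein that binds CpG-rich RNA, had 264 and 332 CPM in interferon-high cells, against 106 and 111 in other cells. SAMHD1, a hydrolase of deoxynucleotides, had 39.0 and 38.7 CPM, against 13.0 and 17.1, and IFI16, a nuclear DNA sensor, 149 and 217, against 115 and 121. EIF2AK2, the kinase PKR, rose by 0.43 on the log2 scale. By contrast CGAS, which detects cytosolic DNA, had 18.8 and 25.8 CPM in interferon-high cells, against 28.2 and 27.4 in other cells, and was not called (log2 fold change -0.30 ± 0.28). MAVS, TBK1 and TLR3 were not called either (0.31, 0.12 and 0.36). Of these, MAVS is the adaptor of the RNA sensors and TBK1 the kinase below both branches.

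Detection per cell was compared at an equal 8000 UMIs (32 and 34 interferon-high cells, 199 and 198 other cells) for DDX58, TMEM173 and IFIH1. It was also higher in interferon-high cells for these 3 genes, with overlapping intervals for IFIH1 in experiment 1. DDX58 was detected in 40.6% of interferon-high cells (95% Clopper-Pearson interval 23.7 to 59.4) and 17.6% of other cells (12.6 to 23.6) in experiment 1, and in 52.9% (35.1 to 70.2) and 18.2% (13.1 to 24.3) in experiment 2. Without thinning the shares were 67.6% and 75.7% of interferon-high cells, against 33.8% and 43.1% of other cells. TMEM173 was detected in 34.4% of interferon-high cells (18.6 to 53.2), against 12.6% of other cells (8.30 to 18.0), in experiment 1, and in 41.2% (24.6 to 59.3), against 7.58% (4.3 to 12.2), in experiment 2, after 51.4% and 64.9%, against 25.2% and 23.7%, without thinning. IFIH1 was detected in 18.8% of interferon-high cells (7.21 to 36.4), against 6.03% of other cells (3.15 to 10.3), in experiment 1. In experiment 2 the shares were 41.2% (24.6 to 59.3), against 6.06% (3.17 to 10.3). The intervals cover counting error only. These libraries hold no cell type that lacks the genes, so the share due to free RNA was not measured.

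Transcripts of interferons themselves were nearly absent. IFNB1, IFNA1, IFNA2, IFNK, IFNE, IFNL1, IFNL2 and IFNL3 were at 0 counts in the 743789 and 931399 counts of the interferon-high sums, and IFNG had 1 and 3 counts. Production of interferon by a few cells at an earlier time, or below this depth, was not tested. The receptors and kinases that read interferon did not differ detectably: of 8 tested, 0 rose and 0 fell (against 3.10% and 3.00% of all genes tested), also at an unadjusted p under 0.05 and by DESeq2. IFNAR1 and IFNAR2, the chains of the receptor for type I interferon, had 55.1 and 71.9 CPM, against 66.1 and 79.4, and 25.5 and 25.8 CPM, against 32.9 and 28.4. JAK1 had 175 and 164 CPM, against 163 and 155.

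Of 8 tested STAT and IRF factors 4 rose (50%, against 3.10% of all genes tested) and 0 fell by edgeR (4 and 0 at an unadjusted p under 0.05, none called by DESeq2, where 2 and 0 reached that p). STAT2 had 47.1 and 50.5 CPM in interferon-high cells, against 34.7 and 26.1 in other cells (1.64-fold). IRF9 had 14.8 and 36.5 CPM, against 11.8 and 13.5, and IRF3, which carries the signal from the sensors, 90.1 and 61.2, against 38.3 and 38.3. STAT2 and IRF9 lost their call when the 4 highest-scoring cells of each library were left out, and kept it in 3 and 6 of 14 alternatives. IRF7, the amplifier of the interferon genes, had 0 counts in both interferon-high sums and 4 counts among all other cells.

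Of 6 tested genes of ISG15 conjugation and feedback, 4 rose (66.7%, against 3.10% of all genes tested) and 0 fell (4 and 0 at an unadjusted p under 0.05 by edgeR, 1 and 0 by DESeq2). HERC6, a ligase of the family that attaches ISG15 in mouse, had 69.9 and 77.3 CPM in interferon-high cells, against 13.4 and 11.6 in other cells (5.92-fold). UBE2L6, the conjugating enzyme of ISG15, had 67.2 and 82.7 CPM, against 38.7 and 52.1, and USP18, which removes ISG15 and dampens receptor signalling, 14.8 and 31.1, against 5.01 and 7.04. UBE2L6 kept its call in 6 of 14 alternatives and USP18 in 10. HERC5, the ligase that attaches ISG15 in human cells, had 6 and 3 counts in interferon-high cells, against 0 and 5 in the larger sums of other cells, and was too low to be tested. The feedback inhibitor SOCS3 was not called (0.45 ± 0.26), with the libraries on opposite sides of 0.

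Of 18 tested genes of HLA class I and antigen processing, 5 rose (27.8%, against 3.10% of all genes tested) and 0 fell (7 and 0 at an unadjusted p under 0.05 by edgeR, 1 and 0 by DESeq2). The other 13 were not called, 8 of the 18 were up in both libraries, and the list's median was -0.03 in experiment 1 and 0.39 in experiment 2. B2M, the light chain of HLA class I, had 1400 and 1540 CPM in interferon-high cells, against 807 and 816 in other cells (1.82-fold). TAPBP, which loads peptides, rose 1.62-fold, and HLA-B, HLA-C and HLA-E 1.32-fold, 1.37-fold and 1.39-fold. HLA-B, HLA-C and HLA-E kept their call in 8, 9 and 4 of 14 alternatives. HLA genes resemble each other and reads shared between genes had been dropped. The peptide transporter TAP1 (55.1 and 66.6 CPM, against 54.9 and 38.6) and the immunoproteasome subunits PSMB8 and PSMB9 (0.19 and -0.14) were not called.

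Taking the 8 interferon lists as one, which were written with results of these data known, 44 of 106 tested genes were higher (41.5%, against 3.10% of all genes tested) and 0 lower (57 and 2 at an unadjusted p under 0.05 by edgeR, 15 and 0 by DESeq2), with a median log2 fold change of 0.43 in experiment 1 and 0.48 in experiment 2. Over all genes tested the median was 0.01. The 44 include OAS2, MX2 and CCL5, which were tested through the interferon-high sums alone.

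**Figure D3:**
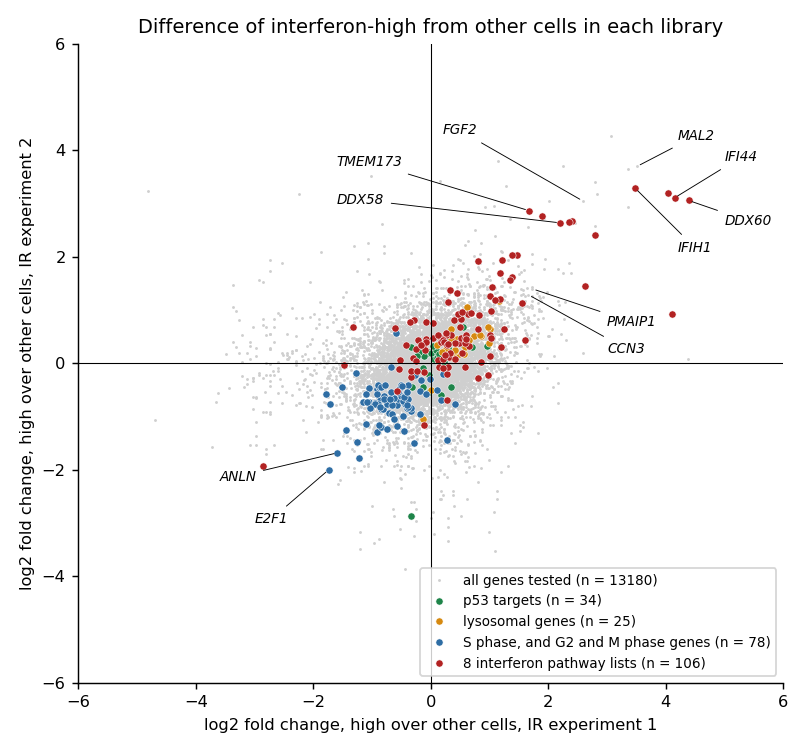
Log2 fold change of interferon-high over other cells in IR experiment 1 (x axis) and IR experiment 2 (y axis) for the 13180 genes tested (grey), with members of the interferon lists, the cell-cycle lists, lysosomal genes and p53 targets coloured and 11 genes named. IFI44 (4.15 and 3.11) and FGF2 (2.59 and 3.05) lie at the upper right, and the cell-cycle genes lie mostly at the lower left.

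Outside the interferon lists, FGF2, a growth factor made without a signal peptide, had the smallest p of all genes tested. It had 280 and 373 CPM in interferon-high cells, against 46.7 and 44 CPM in other cells (7.21-fold, log2 fold change 2.85 ± 0.14). The cell with the most FGF2 held 18.3% and 12.7% of the counts of the interferon-high cells, and without the 4 highest-scoring cells of each library the difference was 2.49. At 8000 UMIs, FGF2 was detected in 50% of interferon-high cells (31.9 to 68.1), against 23.6% of other cells (17.9 to 30.1), in experiment 1, and in 67.6% (49.5 to 82.6), against 20.7% (15.3 to 27.0), in experiment 2. Without thinning the shares were 59.5% and 73.0%, against 49.0% and 41.7%.

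Further genes outside the interferon lists were also higher. CCN3, a matricellular protein, had 429 and 347 CPM in interferon-high cells, against 138 and 140 in other cells (2.79-fold). The integrin ITGA2 had 255 and 352 CPM, against 134 and 128, the cytokine receptor IL7R 155 and 192, against 90.9 and 65.8, and the growth factor FGF5 67.2 and 84.8, against 28.4 and 28.5. ITGA2, IL7R, FGF5 and CCN3 were chosen after their values were seen, as were KRT17, a keratin (485 and 600 CPM, against 284 and 301), and ZNFX1, a helicase with an antiviral role (312 and 289 CPM, against 142 and 129). Because the genes were chosen this way, the distance between their states is a description without a test.

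The 3 chemokines among the largest changes rested on few cells. CCL3L1 had 22.9 and 102 CPM in interferon-high cells, against 2.20 and 4.57 in other cells, CCL3 21.5 and 66.6, against 8.61 and 5.90, and CCL4L2 4.03 and 35.4, against 0 and 3.24. In experiment 2, 1 cell held 78.7% of the CCL3L1 counts, 48.4% of the CCL3 counts and 84.8% of the CCL4L2 counts of the interferon-high cells, and without that library CCL3 and CCL4L2 were not called (adjusted p = 0.252 and 0.15 by edgeR). CCL4L2 was also not called without the 4 highest-scoring cells of each library (log2 fold change 1.66, adjusted p = 0.267 by edgeR), and it entered the test through the interferon-high sums alone. CCL3L1 needed an interferon-high sum to enter the test, so its call is no support. CCL3L1 and CCL4L2 are near copies of CCL3 and CCL4, and the share of their reads that was dropped as ambiguous is not known. PTGS2, the inducible cyclooxygenase (12.1 and 60.1 CPM, against 5.21 and 3.62), and AMTN, an enamel protein (4.03 and 44 CPM, against 3.61 and 3.43), rested on 1 cell in the same way, which held 64.3% and 87.8% of their counts in experiment 2. DESeq2 called neither PTGS2 nor AMTN, and AMTN hardly differed in experiment 1.

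MAL2, a membrane-trafficking protein, was higher in each library (33.6 and 42.9 CPM, against 2.40 and 2.66), as were ADAP1, a GTPase-activating protein (13.4 and 31.1 CPM, against 1.40 and 2.28), and P2RX7, the ATP-gated channel (20.2 and 32.2 CPM, against 2.40 and 4.76). MAL2 and ADAP1 entered the test through the interferon-high sums alone, so their calls are no support. P2RX7 was high enough in only 1 sum of other cells and also needed an interferon-high sum, so its call is no support either. For MAL2 and P2RX7, 1 cell held 56.0% and 60% of the counts of the interferon-high cells in experiment 1. The chemokines CXCL9, CXCL10 and CXCL11, classical targets of interferon, were at 0 or 1 count in the interferon-high sums. CCL2 was at 113 and 160 CPM, against 79.5 and 80.9, and CCL5 at 8 and 6 counts, against 0 and 16.

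Of 17 tested NF-kB targets 3 were higher (17.6%) and 1 lower (5.88%), against 3.10% and 3.00% of all genes tested (6 and 2 at an unadjusted p under 0.05 by edgeR, 1 and 0 by DESeq2), with a median of 0.24. SOD2, the mitochondrial superoxide dismutase, had 473 and 367 CPM in interferon-high cells, against 159 and 151 (2.7-fold). BIRC3 rose to 86.0 and 39.7 CPM, against 21.6 and 27.4, with 59.4% of the interferon-high counts in 1 cell in experiment 1, and IL6 had 17 and 7 counts, against 28 and 9 in the larger sums, with 85.7% of the interferon-high counts in 1 cell in experiment 2. IL6 needed an interferon-high sum to enter the test, so its call is no support, though the count of NF-kB targets that rose includes it. IER3 was the member that fell (log2 fold change -0.53).

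Irradiation is known to activate p53. Of 34 tested p53 targets 4 were higher (11.8%, against 3.10% of all genes tested) and 0 lower (7 and 0 at an unadjusted p under 0.05 by edgeR, 0 and 0 by DESeq2), with a median of 0.11. CDKN1A, which encodes p21, had 969 and 1040 CPM in interferon-high cells, against 957 and 893 in other cells, and was not called (0.12 ± 0.09). FAS had 78.0 and 85.9 CPM, against 75.1 and 71.0, and TP53BP1, which encodes 53BP1, 124 and 111, against 103 and 81.3, neither of them called. MDM2 was 1.35-fold and the secreted stress factor GDF15 1.56-fold higher (GDF15 257 and 217 CPM, against 134 and 171). They kept their call in 5 and 9 of 14 alternatives.

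PMAIP1, which encodes the pro-apoptotic NOXA and is a target of both p53 and interferon regulatory factors, was higher in interferon-high cells. It had 300 and 353 CPM in interferon-high cells, against 91.9 and 132 in other cells (2.95-fold). Of 17 tested apoptosis effectors it was the only one called (5.88%, against 3.10% of all genes tested). That share is near the one over all genes and says little of the list. The p53 target BBC3, which encodes PUMA, was not called, with 39.0 and 54.8 CPM, against 24.2 and 43.6.

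Of 36 tested S phase genes 25 fell (69.4%, against 3.00% of all genes tested) and 0 rose (32 and 0 at an unadjusted p under 0.05 by edgeR, 2 and 0 by DESeq2), with a median of -0.84, and of 42 G2 and M phase genes 25 fell (59.5%) and 0 rose (34 and 0, and 2 and 0 by DESeq2), with a median of -0.62. E2F1, a driver of S phase entry, had 8.07 and 8.59 CPM in interferon-high cells, against 29.0 and 36 in other cells. MCM2, a subunit of the replicative helicase, had 32.3 and 36.5 CPM, against 90.7 and 87.4. ANLN, the cytokinesis protein anillin, had 64.5 and 74.1 CPM, against 200 and 237.

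CDKN3, a phosphatase of cyclin-dependent kinases, had 33.6 and 49.4 CPM, against 84.1 and 140, and BRCA2, needed for homologous recombination, 18.8 and 23.6, against 50.5 and 62.8. CENPJ, a centriole protein, had 0 and 7 counts, against 83 and 86. MKI67, the proliferation marker, had 134 and 129 CPM, against 195 and 170. PKMYT1, CHAF1A, ZNF367, CDC6 and CENPU, all linked to the cell cycle, fell by 1.48, 1.52, 1.49, 1.41 and 1.38 on the log2 scale. Most genes of this paragraph were named because they were called, so the distance between their states is a description.

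Cell by cell, the summed S phase genes had a median of 8.32 and 9.55 counts per 10000 in interferon-high cells, against 28.6 and 28.7 in other cells, and the G2 and M phase genes 3.7 and 5.12, against 25.3 and 26.0. The states overlapped, with an upper quartile of 15.9 and 24.3 S phase counts per 10000 in interferon-high cells and a lower quartile of 8.97 and 10.7 in other cells. The summed p53 targets were at 41.3 and 48.6 counts per 10000, against 40.3 and 42.4. Cells below their library's median of the cell-cycle sum, called low-cycle cells, made up 28 of 37 interferon-high cells in each library (75.7%), against 95 of 210 (45.2%) and 96 of 211 (45.5%) of other cells.

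**Figure D4:**
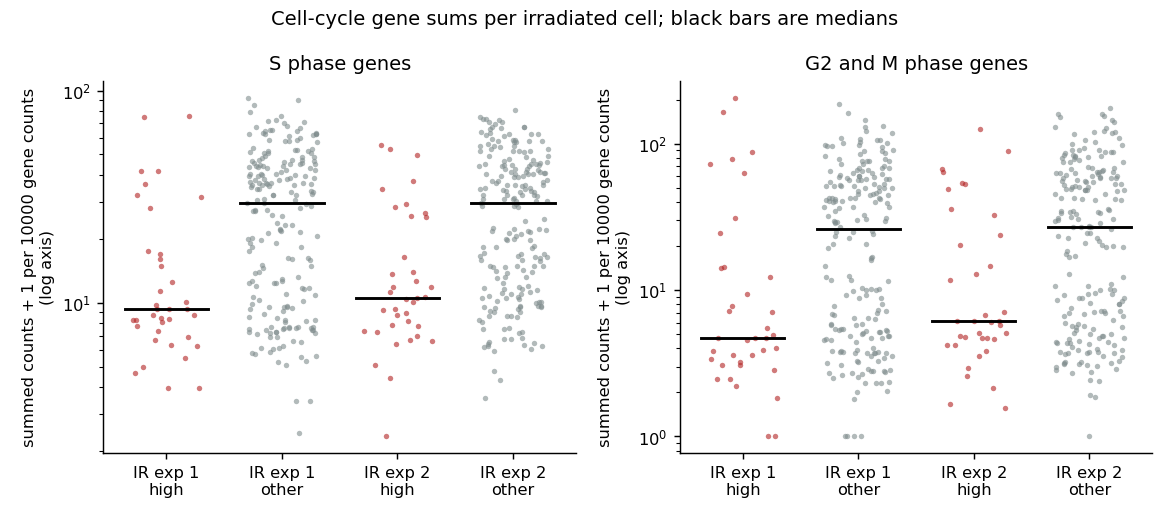
Summed counts of S phase genes (left) and G2 and M phase genes (right) per 10000 gene counts, plus 1, on log axes, in each interferon-high and other cell of the IR libraries; black bars are medians. The medians of the interferon-high cells (S phase 8.32 and 9.55) lie below those of the other cells (28.6 and 28.7), with overlap between single cells.

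Since the cell cycle moved with the score, the comparison was repeated within low-cycle cells alone, an alternative added after the data were seen. Of 11270 genes, 148 were higher (1.31%) and 48 lower (0.426%). FGF2 differed by 2.81, DDX60 by 3.63, IFI44 by 3.43, IFIH1 by 3.69, TMEM173 by 2.40 and PMAIP1 by 1.39 on the log2 scale, values close to those over all cells. Of the 95 interferon-list genes tested there, 29 were higher and 0 lower by edgeR (48 and 0 at an unadjusted p under 0.05). The differences of GDF15 (0.15) and MDM2 (0.36) were not called within low-cycle cells. Low-cycle cells were chosen on the sum of the S phase and the G2 and M phase genes themselves. Values of these lists within them are therefore narrowed by the choice and are a description only. The S phase genes that could be tested there had a median of -0.34, with 0 of 23 called (4 lower at an unadjusted p under 0.05). The G2 and M phase genes had a median of 0.10, with 0 of 25 called (1 higher and 1 lower at that p). CDKN3 was still called lower there (-1.66, adjusted p = 0.00406 by edgeR), whereas ANLN (-1.13) and MCM2 (-1.12) were not called. A lower level within low-cycle cells thus remained in the S phase median and in CDKN3, but not in the G2 and M phase median.

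Of 25 tested lysosomal genes 14 were higher (56%, against 3.10% of all genes tested) and 0 lower (18 and 0 at an unadjusted p under 0.05 by edgeR, 1 and 0 by DESeq2), with a median of 0.46. CTSB, the protease cathepsin B, had 891 and 638 CPM in interferon-high cells, against 458 and 481 in other cells, TPP1 441 and 229, against 249 and 159, and NPC1, the cholesterol exporter, 122 and 123, against 63.1 and 76.3. Within low-cycle cells the median was 0.30 with 6 of 25 higher, against 1.31% of all genes tested there. Outside the list and chosen after its values were seen, GRN, the lysosomal glycoprotein progranulin, had 1040 and 644 CPM, against 515 and 462.

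**Figure D5:**
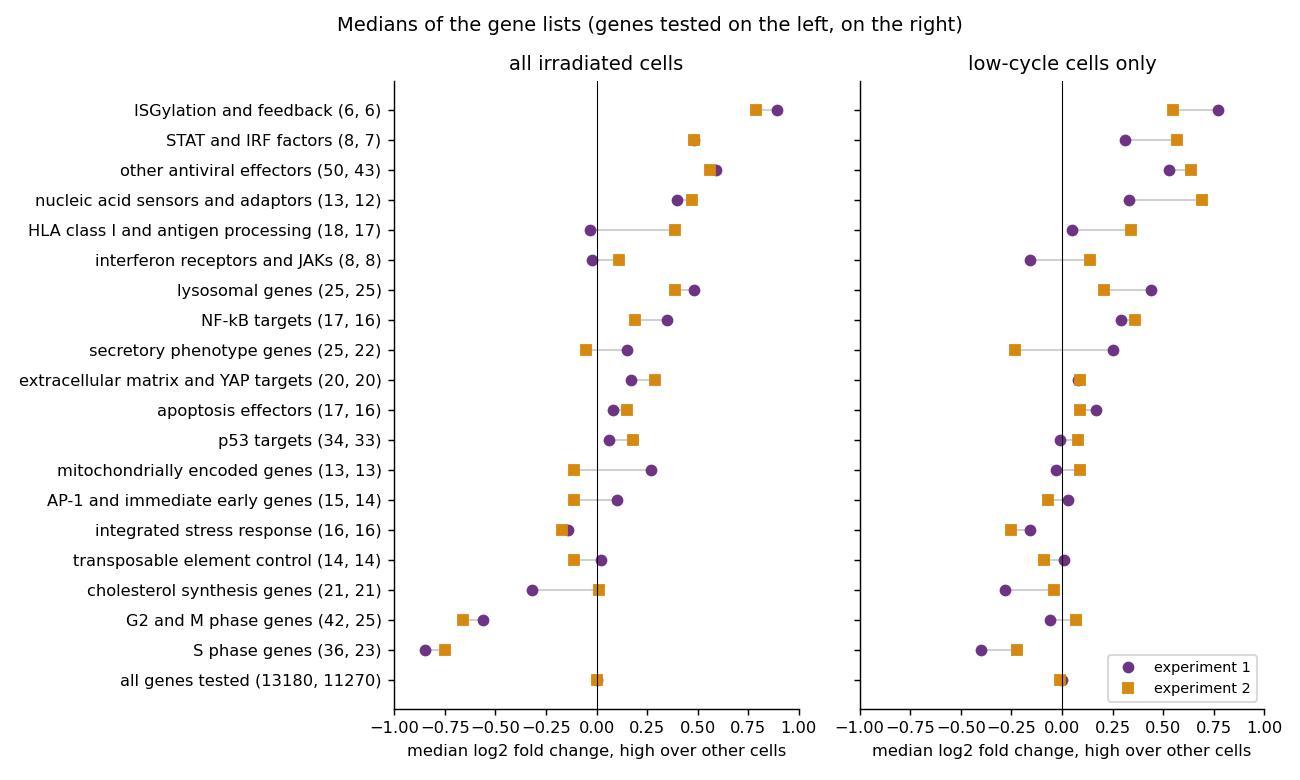
Median log2 fold change of interferon-high over other cells for 19 gene lists and all genes tested in experiment 1 (circles) and experiment 2 (squares), over all irradiated cells (left) and low-cycle cells (right); numbers in brackets are the genes tested on each side. Interferon lists lie above 0 in both panels except for the receptors and, in experiment 1, HLA class I (-0.03). The S phase (-0.84 over both libraries) and G2 and M phase lists lie lowest on the left and nearer 0 on the right. Low-cycle cells were chosen on these cell-cycle lists.

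Of 25 tested secretory phenotype genes, named for factors released by senescent cells, 6 were higher (24%, against 3.10% of all genes tested), among them FGF2, CCL2 and GDF15, and 3 lower (12%, against 3.00%), among them IGFBP5 (187 and 141 CPM, against 260 and 283). DESeq2 called 1 of the 25 higher and 0 lower. The integrated stress response had 1 of 16 higher, ATF3 (60.5 and 171 CPM, against 52.5 and 69.5), and 1 lower, SLC7A11 (36.3 and 8.59 CPM, against 55.7 and 33.9). These shares, 6.25% each, are near those of all genes tested and say little of the list. Of 14 genes that silence transposable elements, DNMT1, UHRF1 and TRIM28 fell (-0.66, -0.97 and -0.36; 21.4%, against 3.00% of all genes tested) and 0 rose (1 at an unadjusted p under 0.05 by edgeR, 0 by DESeq2, which called 0 lower). Within low-cycle cells 0 of the 14 were called (1 higher and 1 lower at an unadjusted p under 0.05 by edgeR), with DNMT1 at -0.07, UHRF1 at -0.34 and TRIM28 at -0.39. Cholesterol synthesis had 1 of 21 lower (4.76%, near the 3.00% of all genes tested), HMGCS1 (243 and 410 CPM, against 424 and 407), whose states differed in experiment 1 alone.

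Markers of other cell types were also measured. Of 13 leukocyte markers, FCGR3A, LYZ and MS4A1 were at 0 in all interferon-high cells, and the summed level was 5.38 and 179 CPM, against 4.21 and 182 in other cells. CD74 and HLA-DRA made up most of the sum of experiment 2. CD74 had 123 CPM in interferon-high cells, against 121 in other cells, and HLA-DRA 26.8, against 39.2. Epithelial markers, which this line carries in part through KRT8 and KRT18, summed to 461 and 492 CPM, against 418 and 487, and endothelial markers to 78.0 and 61.2, against 66.3 and 51.0. None of the 7 tested genes of these 3 lists was called or reached an unadjusted p under 0.05 by edgeR or DESeq2. The osteosarcoma gene SPARC was at 1200 and 1250 CPM, against 1100 and 1100.

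Untreated cells were divided in the same way, by the same score, in libraries not used for the interferon-high cells. The score chose the top untreated cells as well, so interferon-stimulated genes that are higher there are a description and no independent support. The top 15% of untreated cells, 54 and 55 cells, had far lower scores, with medians of 2.02 and 2.04. This contrast is therefore not like for like. It called 49 of 13861 genes higher (0.354%) and 40 lower (0.289%). IFI44 (log2 fold change 3.10), DDX60 (2.57), IFIH1 (1.95) and DDX58 (1.33) were higher there as well, and FGF2 was not called (0.69), with 42.9 and 59.8 CPM in the top cells, against 29.7 and 33.1.

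The difference between the irradiated and the untreated contrast passed the test for 11 genes in the higher (0.0794%) and 10 in the lower direction (0.0721%). FGF2 differed most firmly, by 2.16 (adjusted p = 6.67e-08 by edgeR), followed among antiviral genes by PARP14 (0.94), ZC3HAV1 (0.81), PARP9 (1.13) and B2M (0.56). When untreated cells were instead divided at the score that bounds the irradiated library of the same experiment, 17 of 358 (4.75%) and 5 of 367 (1.36%) were above it. With these as the high cells, FGF2 was higher in untreated cells too (2.16), its difference between the contrasts was 0.67 with adjusted p = 0.94, and the 3 higher and 2 lower genes called were CXCL14, KRT75, CCN1, CLDN4 and C1S, none of them among the 21. The FGF2 difference between irradiated and untreated cells therefore depends on where the untreated cells are divided.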

How the data were processed

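The authors sorted single U-2 OS cells into plates, aligned reads to GRCh38 with STARsolo and deposited 1 matrix of expected counts per library (UMI counts corrected for repeated 6-base identifiers, 36601 genes and 92 spike-ins); Seurat 5 is named in the submitters' processing notes. Per the study's methods, intronic and multi-gene reads were not counted and no UMI threshold was set in mapping. The study analysed fewer cells per library than the deposited matrices hold, by a filter not found in its text, and all deposited barcodes were used here. Strand handling was not found in the sources either. Members and gene lists were chosen with earlier results of these data known. Expected counts were rounded after summing over the cells of 1 state in 1 library, without spike-ins, giving 743789 to 5254440 counts per sum. Both states of a library come from the same library, which pairs them by construction. Sums were compared with edgeR 4.0.16 (R 4.3.3, TMM, filterByExpr, robust quasi-likelihood test, library as a term, Benjamini-Hochberg adjustment at 0.05), although whole-number counts had been planned for. The study describes the 2 experiments as independent sets of samples, without saying whether these were separate cultures. With 2 libraries per group, p-values may still reflect little of the spread between cultures. DESeq2 1.42.0, other top shares, low-count filters, thinning to 8000 UMIs and leaving out each library were alternatives. Detection shares have 95% Clopper-Pearson intervals. Genes named are the score genes, the 15 largest called changes in each direction that averaged 10 CPM or more and shared their sign in both libraries, up to 6 members of each interferon list and 3 of each other list by smallest p, and a set of genes of the p53 and interferon pathways. Further interferon-list members are named where a list is described, and others are marked as chosen after their values were seen. No doublet caller was run. Some genes of the lists are not reported here by name.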

Additional observations from a re-analysis of the deposited data

Results flagged for a closer look

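In 21 genes the contrast of top-scoring over other cells differed between irradiated and untreated libraries, by the interaction term of edgeR fitted to 8 sums at an adjusted p under 0.05. The untreated top cells had far lower scores, and with untreated cells divided at the irradiated boundary none of the 21 was called. Differences are log2, irradiated minus untreated.

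Among antiviral genes the difference was 0.94 for PARP14, 1.13 for PARP9, 0.81 for ZC3HAV1 and 0.56 for B2M, with irradiated contrasts of 1.16, 1.2, 1.47 and 0.86 and untreated contrasts of 0.22, 0.07, 0.66 and 0.31. Growth factor FGF2 differed by 2.16 and the matricellular CCN3 by 0.94. KRT17 (a keratin, 0.75), CRYAB (a small heat-shock protein, 0.70), DDAH1 (which degrades methylated arginine, 1.24), KCNA1 (a potassium channel, 1.84) and the transcript AC105411.1 (3.60) also differed upwards. In experiment 2, 1 cell held 52.0% of the KCNA1 counts of interferon-high cells and 1 held 50% of those of AC105411.1.

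Cell-cycle genes differed downwards, ANLN by -1.24, CDC20 by -1.17, CDKN3 by -1.23, MCM2 by -1.04 and PRR11 by -0.91. The same held for IGFBP5, an insulin-like growth factor binding protein (-1.11), RGS16, a regulator of G protein signalling (-1.57), LINC00511 (-1.36), ZNF790-AS1 (-2.87) and IGFL3 (-4.09). ZNF790-AS1 is antisense to ZNF790, and reads of the 2 cannot be told apart without strand. IGFL3 had 3 and 2 counts in interferon-high cells, from 1 cell in each library.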

How the results depend on the processing

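The number of genes higher in interferon-high cells was 409 and the number lower 395. DESeq2 gave 48 and 18, a score after thinning to 8000 UMIs 253 and 199, as many other cells of nearest total count 82 and 60, leaving out the 4 highest-scoring cells of each library 268 and 253, and low-cycle cells alone 148 and 48, of which 129 and 34 were shared. Without a low-count filter 238 were higher. Without the library block 8 were higher and 0 lower. Leaving out 1 library gave 157 to 209 higher and 207 to 229 lower. The difference between irradiated and untreated contrasts fell to 3 higher and 2 lower genes with untreated cells divided at the irradiated boundary, against 11 and 10. The cause of these changes was not tested. MAL2, DDX60, IFI44, IFIH1, FGF2, HERC6, DDX58 and UCA1 kept their call in 14 of 14 alternatives, although MAL2 had entered the test through the interferon-high sums alone. Directions turned for TPX2 (0.40) and MKI67 (0.43) in low-cycle cells, IGFBP5 (0.18) and IGFL3 (0.04) with the top 25% of cells, SPP1 without 1 library (-0.06 to 1.12), and MT-ATP6 after thinning (-0.08), with cells of nearest total (-0.14), without 1 library (-0.04 to 0.56) and in cells of at least 8000 UMIs (-0.20). Leaving out the 4 highest-scoring cells, the 8000 UMI minimum, the ceiling filter and low-cycle cells were alternatives added after seeing the data. With 3 counts as the floor, levels under 4.03 and 3.22 CPM in the interferon-high sums were not detectable.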
